A study of Homo sapiens with 24 samples.

Results

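The 42 genes described here encode the secreted and membrane machinery at the top of Wnt signalling: 18 WNT ligands, 12 receptors and co-receptors (10 Frizzled genes with LRP5 and LRP6), 9 secreted inhibitors and 3 genes that are standard targets of the pathway. They were chosen by name, matched by Ensembl identifier, and are 42 of the 62757 genes in the deposited count table. All 42 were found, and 34 of them had enough counts to be tested. The 8 that did not were WNT1, WNT3A, WNT7A, WNT8A, WNT10A, WNT10B, SFRP4 and WIF1, none of which had more than 16 counts in any library.

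Bulk RNA was sequenced from HES3 human embryonic stem cells differentiated as embryoid bodies under a protocol that modulates Wnt, for at most 14 days. All cells carried a GFP reporter at NKX2-5 and an mCherry reporter at NR2F2, and all had been treated with CRISPR-Cas9. The knockout targets were LHX2, ZNF503 and ZNF711, with TRAC, a T cell receptor gene, as the control target. Each target was cultured in an AM and in a VM condition, with 3 libraries each, which gives 8 groups and 24 libraries. AM and VM are not spelled out in the labels and are read here as the atrial condition, which received retinoic acid at day 4, and the ventricular one, which did not. Whether a target is 1 clone or a pool of edited cells is not given in the sources used here, nor is it stated whether the replicates were separate cultures, so p-values measure the spread between these libraries, which may be technical.

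WNT proteins are lipid-modified signals that act over short distances. They bind Frizzled receptors, and in the canonical branch also LRP5 or LRP6, which stops the destruction of beta-catenin and lets it activate genes with TCF and LEF factors. Other WNTs, of which WNT5A, WNT5B and WNT11 are the usual examples, act mostly without beta-catenin and steer cell polarity and movement. SFRP proteins and FRZB bind WNTs outside the cell, WIF1 does the same, and DKK1 and DKK2 block the LRP co-receptors. In heart formation Wnt signals are needed early to make mesoderm and must then be held down for cardiac progenitors to form, which is why cardiac protocols first activate and then inhibit the pathway.

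Library depth ran from 2899786 to 7438010 counts, with a median of 5113566. Values are given as CPM, counts relative to the depth of the library after scaling for composition, and 26 of the 42 genes had at least 3 counts in every library. The label cardiomyocyte was checked against 7 markers, all of which had counts in every group and whose summed level ran from 10088 to 40041 CPM. The libraries were not pure heart muscle: 8 hepatic or visceral endoderm markers summed to between 193.7 and 26455 CPM, and 6 fibroblast markers to between 1296 and 5856 CPM. VM replicate 3 of TRAC, LHX2 and ZNF503 and all 3 VM ZNF711 libraries stood apart from the other VM libraries on the second principal component. RNA of the targeted genes gave no clear check of the labels. The AM ZNF711 libraries averaged 42.6 CPM of ZNF711 and the AM TRAC libraries 54.2, and the VM libraries 30.8 and 39.9 CPM. LHX2 had 2 to 14 counts in its own libraries and 3 to 27 in TRAC, while ZNF503 was higher in the libraries labelled ZNF503 than in TRAC, at 295.9 against 111.9 CPM in AM and 35.6 against 13.2 in VM. None of these differences passed the test.

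Promoter sequences are shown for 4 of the genes, to set the letters beside the values that follow: WNT9B and SFRP5, the ligand and the inhibitor gene with the largest rise in AM, WNT16, which was nearly undetected in AM, and DKK1, the only gene here with a TCF/LEF motif in its window. Each sequence is the 250 bases upstream of the RefSeq transcript start on GRCh38.p14, written 5′ to 3′ on the strand of the gene. WNT9B is at chr17:46851333-46851582 (plus strand) and lies within the gene body of a longer WNT9B model in GENCODE 29. SFRP5 is at chr10:97772000-97772249 (minus strand), where GENCODE 29 has no feature. WNT16 is at chr7:121328750-121328999 (plus strand), inside the body of a longer WNT16 model. DKK1 is at chr10:52314031-52314280 (plus strand), over an exon of the antisense gene PRKG1-AS1. Capitals mark matches to the motifs searched, on both strands: ATCAAAG and TTCAAAG for TCF/LEF factors, and AGGTCA, the core motif of retinoic acid receptors.
WNT9B: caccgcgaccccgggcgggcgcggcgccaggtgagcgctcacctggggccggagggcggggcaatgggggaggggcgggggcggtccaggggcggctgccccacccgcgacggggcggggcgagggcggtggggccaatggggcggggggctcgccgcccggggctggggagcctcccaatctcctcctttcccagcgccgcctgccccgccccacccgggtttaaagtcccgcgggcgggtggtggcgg
SFRP5: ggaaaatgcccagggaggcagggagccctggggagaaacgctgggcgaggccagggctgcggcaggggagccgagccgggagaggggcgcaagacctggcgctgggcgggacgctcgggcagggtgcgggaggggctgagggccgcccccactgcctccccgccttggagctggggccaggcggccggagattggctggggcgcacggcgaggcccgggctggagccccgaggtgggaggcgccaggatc
WNT16: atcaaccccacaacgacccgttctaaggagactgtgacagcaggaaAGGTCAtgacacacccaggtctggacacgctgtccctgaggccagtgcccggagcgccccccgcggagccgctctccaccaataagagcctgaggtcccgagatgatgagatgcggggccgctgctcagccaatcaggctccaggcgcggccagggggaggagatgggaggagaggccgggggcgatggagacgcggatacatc
DKK1: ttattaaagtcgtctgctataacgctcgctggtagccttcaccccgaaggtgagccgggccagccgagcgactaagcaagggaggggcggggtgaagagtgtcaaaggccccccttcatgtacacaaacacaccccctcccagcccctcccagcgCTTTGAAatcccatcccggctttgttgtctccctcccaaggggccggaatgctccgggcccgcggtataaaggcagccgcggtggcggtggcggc

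The DKK1 match, TTCAAAG on the minus strand, begins 95 bases upstream of the start, and the AGGTCA in WNT16 lies 204 bases upstream on the plus strand. RefSeq held 31 such windows for 28 of the 42 genes, and these 2 matches were the only ones: 1 of 31 windows held a TCF/LEF form and 1 of 31 held AGGTCA. Of all 35116 promoter windows of this length, 5.94% held a TCF/LEF form and 12.1% held AGGTCA. WNT9B and SFRP5 held neither in these windows. The 14 genes without a window were WNT7B, WNT10B, WNT11, FZD2, FZD3, FZD6, FZD7, FZD10, LRP6, SFRP1, DKK2, DKK3, AXIN2 and NKD1.

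The main comparison asks which of these genes differed between the 2 protocols. It set the mean of the 4 AM groups against the mean of the 4 VM groups, 12 libraries against 12, with 1 estimate of spread over all groups. Of the 34 tested genes 22 were called at an adjusted p below 0.05 (edgeR's quasi-likelihood test with Benjamini-Hochberg adjustment), 13 higher and 9 lower in AM, which is 64.7% of those tested. The background was high as well: 34.5% of all 17724 genes tested were called in this comparison, 16.8% as higher and 17.6% as lower. By role the calls were 9 of 12 tested ligands (4 higher, 5 lower in AM), 6 of 12 receptors (4 higher, 2 lower), 5 of 7 tested inhibitors (3 higher, 2 lower) and 2 of 3 targets, both higher. The median log2 fold change of the 34 was 0.0077 and that of all tested genes -0.0077. In 8 genes the 12 AM libraries did not overlap the 12 VM libraries: WNT5B, WNT9B, WNT16, FZD7, SFRP1, SFRP5, FRZB and NKD1. Of all genes tested, 752 or 4.24% had libraries that did not overlap in this way. These are bulk libraries, in which fewer cells of a type and less RNA per cell cannot be told apart.

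**Figure D1:**
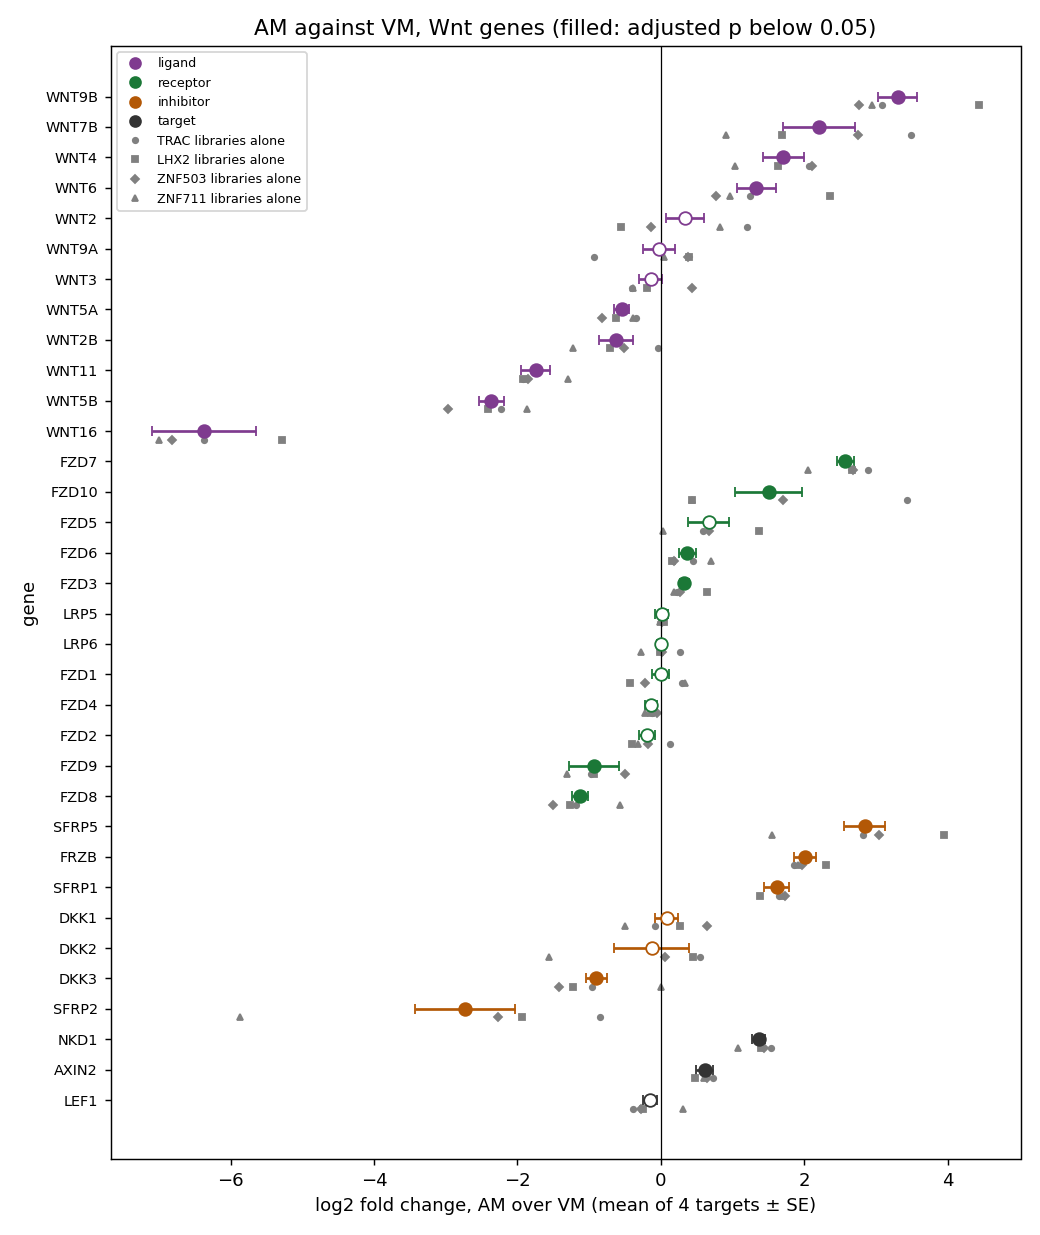
Log2 fold change of each of the 34 tested genes in AM against VM, by role: large points are the mean of the 4 targets with its standard error, filled where the adjusted p was below 0.05, and small grey marks are the single targets. FZD7, WNT9B, SFRP5 and FRZB lie on the AM side and WNT5B, WNT11 and WNT16 on the VM side, while LRP5, LRP6 and FZD1 sit at or next to 0.

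Among the ligands WNT9B, a canonical WNT known from kidney tubule formation, showed the largest rise in AM. Its AM libraries ran from 16.2 through a median of 29.3 to 42.5 CPM, and its VM libraries from 0.187 through 2.97 to 7.38 CPM. All 12 AM libraries lay above all VM libraries, with a log2 fold change of 3.31 (SE 0.27, adjusted p 1.71e-09). The gene body of WNT3, a canonical ligand needed for mesoderm formation, lies 46 bases from that of WNT9B on the other strand of chromosome 17 (GENCODE 29). The RefSeq windows of both genes lie inside these gene bodies, so their RefSeq starts are further apart. WNT3 had a median of 5.02 CPM in AM and 5.81 in VM and a log2 fold change of -0.14 (adjusted p 0.553).

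WNT4, which acts in kidney and gonad development, ran from 3.42 through 6.09 to 11.3 CPM in AM and from 0.424 through 1.53 to 7.50 CPM in VM. The groups overlapped only through VM ZNF711 replicate 3, the highest VM library, and the log2 fold change was 1.71 (SE 0.29, adjusted p 4.8e-05). WNT7B, a canonical ligand of lung and vessel development, was low throughout, with a median of 3.10 CPM in AM and 0.602 CPM in VM. The groups overlapped, VM ZNF711 replicate 1 being the highest VM library at 5.17 CPM, and the log2 fold change was 2.21 (SE 0.50, adjusted p 0.00114). WNT6, a ligand expressed in surface epithelia and in early heart-forming regions, had a median of 4.53 CPM in AM and 1.995 in VM, with overlap and a log2 fold change of 1.33 (SE 0.27, adjusted p 0.000386). When the 4 targets were summed within each protocol and replicate number, giving 3 sums against 3, WNT6 was no longer called (adjusted p 0.057, background 11.5%).

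WNT5B, WNT11 and WNT5A, the ligands best known for signalling without beta-catenin, were all lower in AM. WNT5B ran from 2.04 through 5.24 to 7.77 CPM in AM and from 16.2 through 25.8 to 37.5 CPM in VM. No AM library reached the lowest VM library, and the log2 fold change was -2.37 (SE 0.18, adjusted p 9.91e-11). WNT11, which is expressed in the developing outflow tract and promotes cardiac differentiation, ran from 3.35 through 5.41 to 11.9 CPM in AM and from 11.8 through 22.5 to 29.4 CPM in VM. Its groups touched at 1 AM and 1 VM library, and the log2 fold change was -1.75 (SE 0.21, adjusted p 2.54e-07). WNT5A differed least among the 3, from a median of 128.8 CPM in VM to 83.9 CPM in AM. Its groups overlapped, and the log2 fold change was -0.55 (SE 0.10, adjusted p 0.000145).

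WNT16, a ligand studied mostly in bone and joint, was the most one-sided of the genes. The 12 AM libraries held 1 count in all, in LHX2 replicate 3, and the 12 VM libraries held 180, a depth-corrected ratio of 172.8 with an exact 95% interval of 30.6 to 6861 that covers counting error only. Every VM library had counts, from 0.814 to 8.78 CPM. In TRAC, ZNF503 and ZNF711 the AM group was at 0. There the VM mean was 11.7, 15.4 and 14.4 times a floor of 3 counts over the AM group. These ratios leave out counting error and the spread between VM libraries, and are not lower bounds. The adjusted p of the comparison was 1.02e-06.

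WNT2B, a ligand of the early liver and lung field, was called at -0.62 (SE 0.24, adjusted p 0.0455), but the call was lost in 16 of the 24 fits that left out 1 library. WNT2, a ligand of the posterior second heart field, differed by 0.33 (adjusted p 0.367). WNT9A, a ligand of joint formation, differed by -0.03 (adjusted p 0.937). Neither passed the test. Strand use in counting is not given in the sources used here, so reads of WNT5A, WNT11, DKK1, LEF1 and NKD1 cannot be told apart from those of their antisense genes, nor those of WNT5B from FBXL14 or of WNT2B from ST7L where they overlap.

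**Figure D2:**
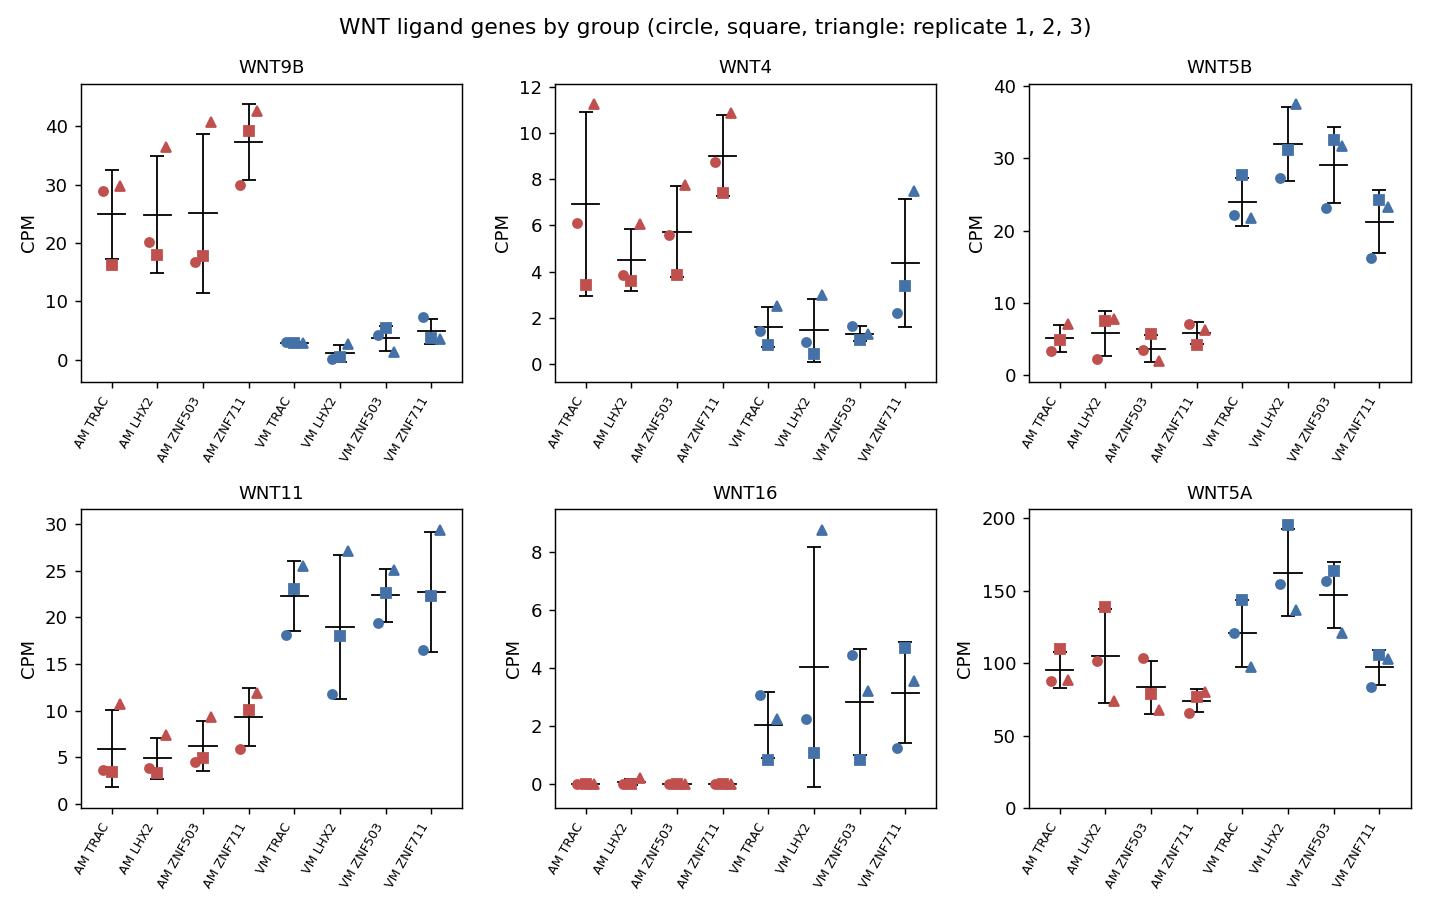
CPM of 6 WNT ligand genes in each of the 8 groups, 1 point per library with the mean and the SD. WNT9B and WNT4 are high in the AM groups, and WNT5B, WNT11 and WNT16 in the VM groups, with WNT16 at or next to 0 in all AM libraries.

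Levels per kilobase of exon allow the ligands to be compared with each other. WNT5A led in both protocols, at 12.1 ± 2.84 CPM per kb in AM and 17.8 ± 4.40 in VM (SD, n = 12 each). The second place differed. In AM it was WNT9B, at 8.45 ± 3.03 CPM per kb, and in VM it was WNT11, at 8.98 ± 2.08, followed by WNT5B at 6.17 ± 1.37. As shares of all ligand RNA per kb, WNT9B held 25.2% ± 6.78 in AM and 2.38% ± 1.70 in VM. WNT11 held 8.02% ± 2.84 and 21.9% ± 4.48, and WNT5B 3.59% ± 1.31 and 14.9% ± 2.29. The summed ligand level was 33.0 ± 4.96 CPM per kb in AM and 41.0 ± 4.18 in VM.

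FZD7, the Frizzled gene best known from pluripotent cells and early mesoderm, had the smallest p of all 34 genes. Its AM libraries ran from 268.6 through 367.5 to 423.6 CPM and its VM libraries from 38.8 through 58.8 to 102.7 CPM. The lowest AM library was above all VM libraries, and the log2 fold change was 2.58 (SE 0.11, adjusted p 6.85e-15). FZD10, a receptor of canonical WNTs, was scarce, with a median of 3.63 CPM in AM and 0.721 in VM, and a log2 fold change of 1.502 (SE 0.47, adjusted p 0.0135). That call rested on AM LHX2 replicate 2, without which the adjusted p was 0.0553, and it was lost with the targets summed (0.0782).

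FZD3, which acts in neuronal polarity and axon growth, and FZD6, its close relative in planar polarity, were slightly higher in AM. FZD3 ran from 70.3 through 78.4 to 107.0 CPM in AM and from 58.4 through 62.7 to 79.0 CPM in VM, a log2 fold change of 0.33 (SE 0.07, adjusted p 0.000357). FZD6 differed by 0.37 (SE 0.12, adjusted p 0.0166). Both calls were lost with the targets summed (adjusted p 0.0861 and 0.201), and that of FZD6 also without replicate 1 or without replicate 3.

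FZD8 and FZD9 went the other way. FZD8, a receptor with a high affinity for canonical WNTs, ran from 12.6 through 20.3 to 33.1 CPM in AM and from 31.4 through 46.7 to 59.6 CPM in VM. Its groups met only at AM ZNF711 replicate 2 and the lowest VM libraries, and the log2 fold change was -1.13 (SE 0.11, adjusted p 1.54e-08). FZD9, a receptor known from the nervous system and bone, was low in all libraries (0.545 to 7.58 CPM) and was called at -0.93 (adjusted p 0.0366). It lost the call in 12 of the 24 fits without 1 library and with the targets summed (adjusted p 0.17).

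FZD5, a receptor of the gut and eye that also binds WNT5A, did not pass the test at 0.67 (SE 0.28, adjusted p 0.0802), but was called with the replicate number as a block (adjusted p 0.00827, background 41.7%). It was called too with library size scaling (adjusted p 0.0329, background 35.5%) and with no filter on low counts (background 15.8%), but not with the targets summed (adjusted p 0.331). Its VM libraries fell into separate levels. Replicates 1 and 2 of VM TRAC, LHX2 and ZNF503 ran from 29.2 to 48.8 CPM. Replicate 3 of the same groups gave 185.0 CPM in TRAC, 102.9 in LHX2 and 134.3 in ZNF503, and VM ZNF711 gave 130.5, 142.5 and 188.7 CPM. The AM libraries ran from 103.0 to 180.7 CPM, so the high VM libraries lay within the AM range apart from VM LHX2 replicate 3, just below it, and replicate 3 of VM TRAC and of VM ZNF711, above it. The 8 hepatic or visceral endoderm markers moved with this split, with sums of 1385 to 3156 CPM in the 6 low VM libraries and 8947 to 26455 CPM in the 6 high ones. The 7 cardiomyocyte markers went the other way, from 33553 to 40041 CPM in the 6 libraries low in FZD5 and from 10088 to 18193 CPM in the others. Their part in the FZD5 levels was not tested.

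The remaining receptors did not pass the test. LRP5, one of the canonical co-receptors, had a median of 140.0 CPM in AM and 126.3 in VM and a log2 fold change of 0.01 (SE 0.09, adjusted p 0.931). LRP6, the other, had medians of 161.9 and 162.4 CPM and a log2 fold change of 0.0023 (SE 0.06, adjusted p 0.982). FZD1, FZD2 and FZD4, the last also the receptor of the retinal vessel factor norrin, had log2 fold changes of -0.0042, -0.19 and -0.13, with adjusted p of 0.985, 0.205 and 0.223.

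Per kilobase, FZD7 made up 48.9% ± 2.51 of all Frizzled RNA in AM and 13.9% ± 2.81 in VM (SD, n = 12 each). FZD2 led in VM with 25.4% ± 2.92, against 13.2% ± 1.41 in AM, and FZD8 held 10.3% ± 1.55 in VM and 2.83% ± 0.75 in AM. The summed Frizzled level was 189.4 ± 21.2 CPM per kb in AM and 112.4 ± 16.0 in VM.

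**Figure D3:**
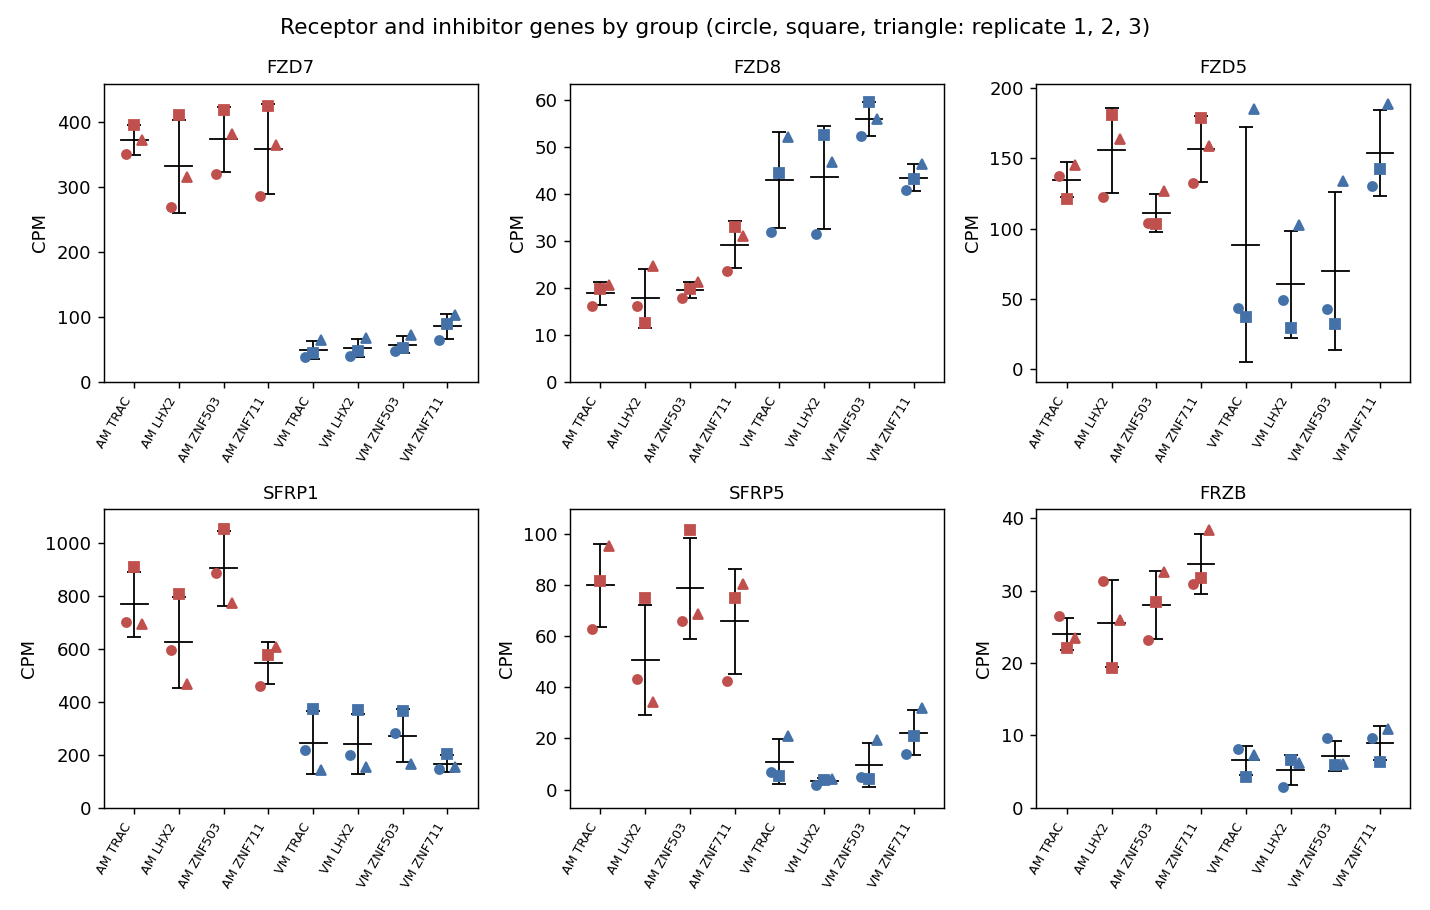
CPM of 3 Frizzled and 3 inhibitor genes in each of the 8 groups, 1 point per library with the mean and the SD. FZD7, SFRP1, SFRP5 and FRZB are high in AM and FZD8 in VM, while FZD5 in VM is high in replicate 3 (triangles) of TRAC, LHX2 and ZNF503 and in all ZNF711 libraries.

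SFRP1, an inhibitor that binds WNTs in the extracellular space, was higher in AM. It ran from 457.8 through 697.0 to 1051 CPM in AM and from 141.7 through 200.3 to 374.6 CPM in VM. No libraries overlapped, and the log2 fold change was 1.61 (SE 0.17, adjusted p 2.84e-07). In VM TRAC, LHX2 and ZNF503, replicate 3 was the lowest of the 3 libraries each time, at 141.7, 154.0 and 167.2 CPM.

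SFRP5, a relative expressed in foregut endoderm and in the sinus venosus end of the heart, showed the largest rise of the inhibitors. Its AM libraries ran from 34.1 through 71.7 to 101.4 CPM and its VM libraries from 1.87 through 5.93 to 31.7 CPM. The groups did not overlap, and the log2 fold change was 2.84 (SE 0.28, adjusted p 2.15e-07). FRZB, also called SFRP3, ran from 19.3 through 27.5 to 38.4 CPM in AM and from 2.81 through 6.47 to 10.8 CPM in VM, again with no overlap (log2 fold change 2.01, SE 0.15, adjusted p 7.77e-11). Per kb, SFRP1 made up 76.0% ± 3.80 of SFRP and FRZB RNA in AM and 77.6% ± 17.96 in VM, while the sum was 195.8 ± 46.4 CPM per kb in AM and 62.0 ± 15.6 in VM.

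SFRP2, another WNT-binding member of that family, was lower in AM by log2 -2.73 (SE 0.70, adjusted p 0.00472), and that value came from few libraries. VM ZNF711 gave 41.1, 37.0 and 18.5 CPM in replicates 1 to 3, VM TRAC 0, 1.44 and 3.86 CPM, and the AM libraries 0 to 1.62 CPM. Without VM LHX2 replicate 3, at 7.38 CPM, the adjusted p was 0.324, and the call was also lost without replicate 3 of all groups.

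DKK3, a secreted member of the Dickkopf family whose effect on Wnt signalling is less settled than that of the others, ran from 26.5 through 48.2 to 61.4 CPM in AM and from 40.9 through 73.9 to 134.4 CPM in VM. The groups overlapped, and the log2 fold change was -0.90 (SE 0.15, adjusted p 6.2e-05). DKK1, the best known block of the LRP co-receptors and itself a target of the pathway, had medians of 16.1 CPM in AM and 13.7 in VM and a log2 fold change of 0.08 (SE 0.16, adjusted p 0.746). DKK2, its weaker relative, differed by -0.13 (SE 0.53, adjusted p 0.884) at no more than 12 counts in any library. WIF1, which was not tested, had no count in AM and 9 in VM. These lay in 4 VM libraries, 5 of them in VM TRAC replicate 3, the deepest library. The VM mean was 2.52 times a floor of 3 counts over all AM libraries, a ratio that leaves out counting error. SFRP4 had at most 6 counts in a library.

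Both negative-feedback targets were higher in AM. NKD1, which binds Dishevelled and restrains the pathway, ran from 65.3 through 86.7 to 110.5 CPM in AM and from 25.9 through 32.3 to 49.0 CPM in VM. The groups did not overlap, and the log2 fold change was 1.36 (SE 0.09, adjusted p 1.35e-11). AXIN2, the scaffold of the beta-catenin destruction complex that most cells switch on in response to canonical Wnt, had medians of 34.5 CPM in AM and 22.0 in VM. Its groups overlapped, with a log2 fold change of 0.61 (SE 0.12, adjusted p 0.000184). LEF1, a DNA-binding partner of beta-catenin, had medians of 41.6 and 46.8 CPM and did not pass the test (log2 fold change -0.16, SE 0.10, adjusted p 0.247).

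**Figure D4:**
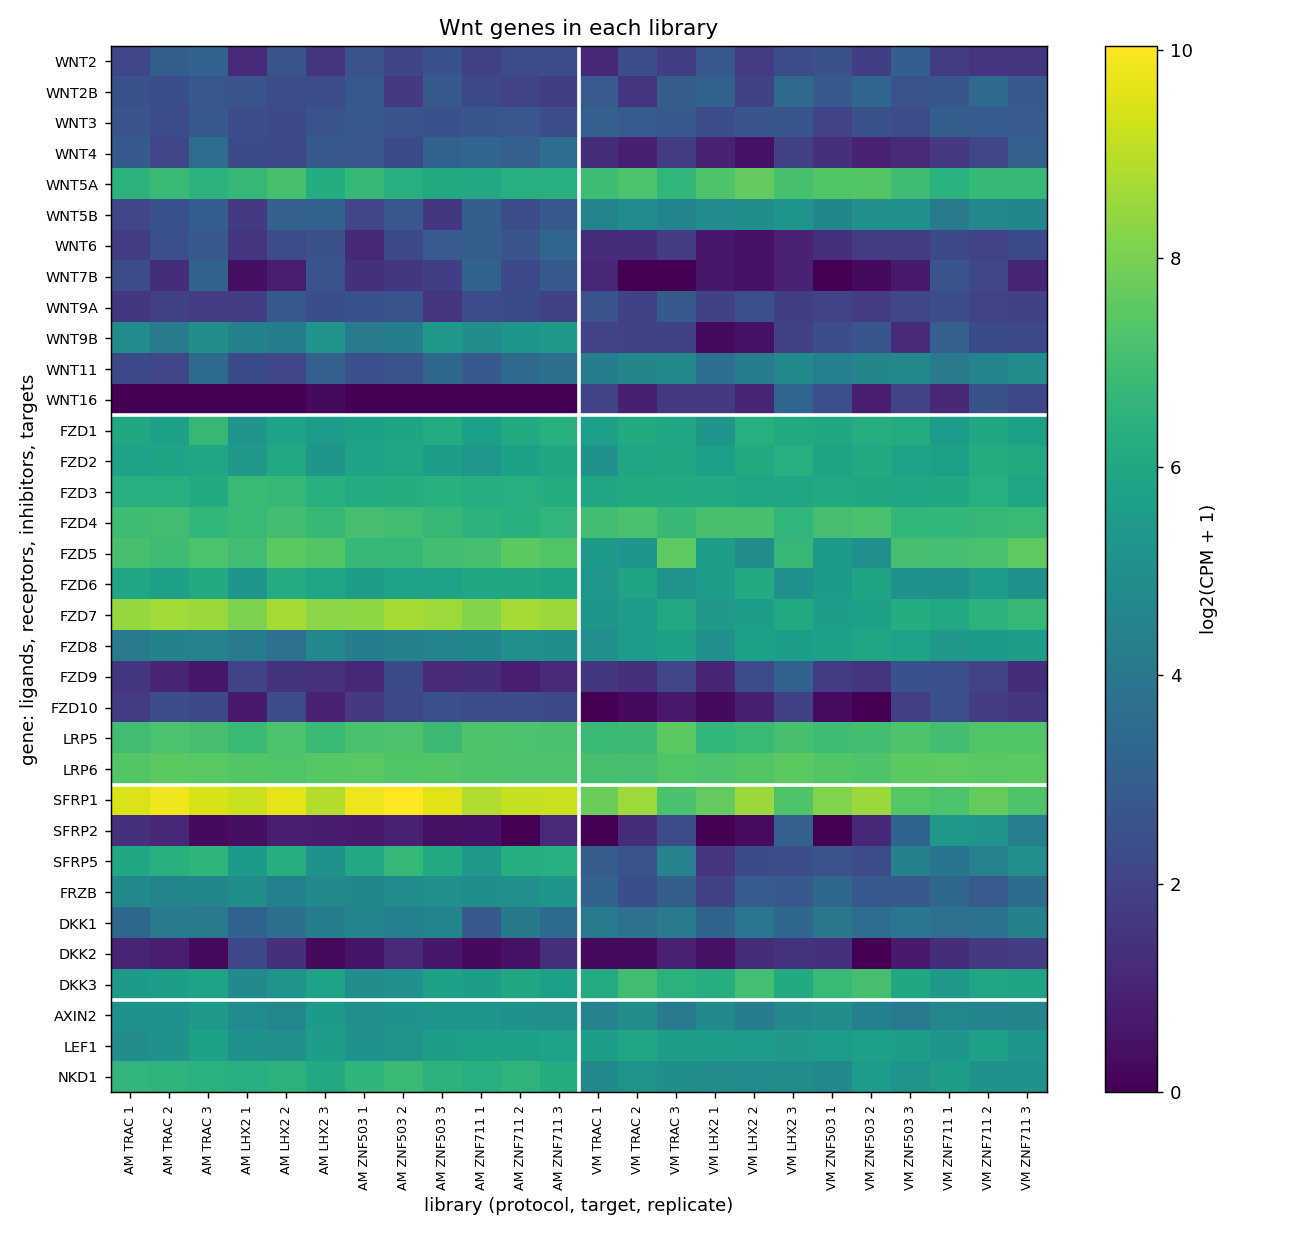
Level of each of the 34 tested genes, as log2(CPM + 1), in each of the 24 libraries, with white lines between the roles and between AM and VM; colours are to be read along a row, since they are not per length. The WNT9B, FZD7, SFRP1, SFRP5, FRZB and NKD1 rows are brighter in AM and those of WNT5B, WNT11, WNT16 and FZD8 in VM, and SFRP2 is bright in the 3 VM ZNF711 libraries.

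Marker RNA also differed between the protocols beside these genes. The marker counts here and in the next paragraph stand beside 16.8% of all genes called as higher and 17.6% as lower. All 5 ventricular markers were lower in AM, with sums of 34.3 to 187.5 CPM against 467.5 to 1366 in VM, and 6 of 8 hepatic or visceral endoderm markers were lower, with sums of 193.7 to 2005 against 1385 to 26455 CPM. Of the 6 atrial markers 5 were higher and 1, MYL7, was lower. Their sums overlapped, at 1082 to 2036 CPM in AM and 920.8 to 1854 in VM. The 6 fibroblast markers (3 higher, none lower) summed to 3532 to 5856 CPM in AM and 1296 to 3772 in VM, and the 6 epicardial markers (5 tested, 3 higher, 1 lower) to 51.7 to 154.1 and 23.6 to 64.7 CPM. Of the endothelial markers 3 of 6 were higher, with sums of 299.9 to 692.0 CPM in AM and 248.1 to 388.3 in VM, and of the smooth muscle markers 2 of 4 were higher and 1 lower (602.4 to 1492 and 408.1 to 767.6 CPM).

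Foregut endoderm markers had 2 of 6 higher in AM, SOX17 and FOXA1, with sums of 181.5 to 405.9 CPM in AM and 160.1 to 444.8 in VM. Of the 3 neural markers tested 2 were higher (509.5 to 925.5 and 441.1 to 708.0 CPM for all 5). Lower in AM were all 3 pluripotency markers tested, with sums of 136.5 to 183.1 CPM for the 4 against 144.8 to 418.4 in VM, and 3 of 4 cell cycle markers (164.1 to 266.3 against 179.0 to 439.8 CPM). Of the 7 cardiomyocyte markers ACTN2 and NKX2-5 were lower, with sums of 14501 to 28183 CPM in AM and 10088 to 40041 in VM. Markers at 0 in a whole group were MYL2, a ventricular gene, in 3 AM groups, the endothelial STAB2 in VM TRAC and VM ZNF503, the neural SOX1 in 5 groups and ELAVL3 in AM TRAC, and the pluripotency gene NANOG in AM ZNF711 and VM ZNF503. The part of other cell types in the levels of the Wnt genes was not tested.

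Within the single targets, 3 libraries were set against 3. In TRAC 15 of the 34 were called, 10 higher and 5 lower in AM, where the background was 11.3% of all genes, 6.18% higher and 5.12% lower. In LHX2 13 were called, 8 higher and 5 lower, with a background of 8.56% (4.68% and 3.88%). In ZNF503 13 were called, 7 higher and 6 lower, with a background of 8.86% (4.77% and 4.1%). In ZNF711 9 were called, 5 higher and 4 lower, against a background of 13.2% (6.81% and 6.42%). With the replicate block the ZNF711 count was 16, at a background of 23.4%. The targets share no libraries in these comparisons, but they share the estimate of spread and are not fully independent repeats. Deviations of same-numbered libraries from their group means correlated by 0.12 to 0.79 over all pairs of groups compared. The highest were 0.60 to 0.75 between VM LHX2 and VM TRAC and 0.62 to 0.79 between VM ZNF503 and VM TRAC.

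The same 8 genes were called in all 4 targets: WNT5B, WNT9B, WNT11, WNT16, FZD7, SFRP1, FRZB and NKD1. Of all genes tested 607, or 3.42%, were called in all 4. FZD8, SFRP5 and DKK3 were called in 3 and WNT4 in 2. WNT5A, WNT6, WNT7B, FZD3, FZD10, SFRP2 and AXIN2 were called in 1, and 15 in none. WNT9B, FZD7, FRZB and NKD1 kept the call in every target with any 1 library or any replicate number left out. WNT5B did so in all but ZNF711. Some values moved far with 1 library: WNT11 in TRAC was at -2.65 without AM TRAC replicate 3, WNT16 in LHX2 at -7.34 without AM LHX2 replicate 3, which held its only AM count, and at -4.02 and no longer called without VM LHX2 replicate 3 (adjusted p 0.0801).

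FZD7 had a log2 fold change of 2.89 in TRAC, 2.67 in LHX2, 2.69 in ZNF503 and 2.06 in ZNF711. Its 3 TRAC libraries gave 349.6, 395.2 and 371.4 CPM in AM and 38.8, 45.6 and 65.3 in VM, and its ZNF711 libraries 285.3, 423.6 and 363.6 in AM and 65.5, 89.1 and 102.7 in VM. WNT9B had 3.08, 4.44, 2.76 and 2.94 in the same order of targets. The highest of these belonged to LHX2, where its VM libraries gave 0.187, 0.424 and 2.79 CPM. FRZB had 1.86, 2.30, 1.97 and 1.92, and NKD1 1.54, 1.39, 1.44 and 1.08.

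SFRP1 had a log2 fold change of 1.65 in TRAC, 1.38 in LHX2, 1.73 in ZNF503 and 1.70 in ZNF711. WNT5B had -2.22, -2.41, -2.97 and -1.86, and WNT11 -1.92, -1.92, -1.85 and -1.30. All 3 were thus called on the same side in each target. Not all of these calls held in the 9 fits per target that left out 1 library or replicate number. The WNT11 call in ZNF711 was lost in 6 of them and the SFRP1 call in LHX2 in 4.

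In the 3 genes called in 3 targets, the target without a call was ZNF711. FZD8 had a log2 fold change of -1.18 in TRAC, -1.27 in LHX2 and -1.51 in ZNF503, and -0.57 in ZNF711 (adjusted p 0.0902, or 0.0149 with the block). SFRP5 had 2.82, 3.95 and 3.05, and 1.56 in ZNF711 (adjusted p 0.0532, or 0.0161 with the block). Without the third VM library SFRP5 was at 3.75 in TRAC and 4.13 in ZNF503. DKK3 had -0.96, -1.22 and -1.42, and 0.01 in ZNF711 (adjusted p 0.994). Its calls were lost in 7 of 9 fits that left out 1 library or replicate number in TRAC, 5 in LHX2 and 2 in ZNF503. The AM and VM ZNF711 libraries averaged 53.0 and 52.7 CPM of DKK3, where the VM TRAC libraries gave 72.0, 125.2 and 87.6. Replicate 3 of VM LHX2 and of VM ZNF503 was also the lowest in DKK3 within its group, at 70.0 and 64.5 CPM. For SFRP5, replicate 3 of VM TRAC and of VM ZNF503 gave 20.9 and 19.5 CPM. The VM ZNF711 libraries gave 14.0, 21.0 and 31.7 CPM of SFRP5, and VM LHX2 replicate 3 gave 4.19. The difference of ZNF711 from TRAC in the protocol effect, the interaction, did not pass the test for FZD8, SFRP5 or DKK3.

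Other calls within a target were WNT4 at 2.07 in TRAC and 2.11 in ZNF503, WNT7B at 3.49 and FZD10 at 3.44 in TRAC, WNT6 at 2.36 and FZD3 at 0.64 in LHX2, WNT5A at -0.82 in ZNF503, and AXIN2 at 0.73 in TRAC. Each of these calls was lost in some of the 9 fits that left out 1 library or replicate number, in 5 fits for WNT4 in TRAC and 8 in ZNF503, 6 each for WNT7B and FZD10, 5 for WNT6, 2 for FZD3, 5 for WNT5A and 8 for AXIN2. WNT7B ran from 2.12 without replicate 3 to 7.61 without replicate 1, and was not called without AM TRAC replicate 1 or 3 or without VM TRAC replicate 2 or 3. FZD10 ran from 2.945 without VM TRAC replicate 1 to 4.75 without VM TRAC replicate 3, and was not called without AM TRAC replicate 2 or 3 or VM TRAC replicate 1 or 2.

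SFRP2 was called in ZNF711 alone, at -5.87 (SE 1.42, adjusted p 0.00959), from 0.407, 0 and 1.30 CPM in AM against 41.1, 37.0 and 18.5 CPM in VM. The call was lost without AM ZNF711 replicate 1 (adjusted p 0.0509) or 2 (0.0571) and without replicate number 1 or 2, and the value ran from -7.44 to -5.14 over those fits. With the replicate block, where the background was 19.4% in TRAC, 15.7% in LHX2 and 14.9% in ZNF503, further calls were LRP6 in TRAC (0.27), WNT4, WNT5A and FZD5 in LHX2 (1.73, -0.65 and 1.51), AXIN2 in ZNF503 (0.64), and, in ZNF711, WNT2B (-1.27), WNT4 (1.14), FZD6 (0.71), LRP6 (-0.27) and AXIN2 (0.61) beside FZD8 and SFRP5.

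The second question was whether a knockout changed these genes within a protocol. None of the 34 was called in any of the 6 comparisons with TRAC, where the share of all genes called was 0% in 5 and 0.0169% in VM ZNF711. At an unadjusted p below 0.05 there were 3 in AM LHX2 (7.74% of all genes), 0 in AM ZNF503 (1.74%), 3 in AM ZNF711 (3.49%), 3 in VM LHX2 (2.61%), 1 in VM ZNF503 (1.55%) and 8 in VM ZNF711 (9.4%). DESeq2 called none of the 34 either, and between 0% and 0.152% of all genes. The targets share the TRAC libraries of a protocol.

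In VM ZNF711 against VM TRAC, 3 genes were called with the replicate block, at a background of 2.27% of all genes. The VM ZNF711 libraries gave 65.5, 89.1 and 102.7 CPM of FZD7, and the VM TRAC libraries 38.8, 45.6 and 65.3. Each ZNF711 library was above the TRAC library of the same number. The lowest, ZNF711 replicate 1 at 65.48 CPM, was level with TRAC replicate 3 at 65.34 CPM. The log2 fold change was 0.78 in both fits (adjusted p 0.223, with the block 0.00636). LRP6 gave 187.1, 178.2 and 180.8 CPM against 137.2, 134.3 and 157.9 (log2 fold change 0.35, adjusted p 0.28, with the block 0.0465). SFRP2 was at 4.10 on the log2 scale without the block (adjusted p 0.274) and 4.70 with it (0.0476). All 3 were higher in ZNF711.

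With a separate block in each protocol, an alternative added after the data were seen, 8 genes were called in VM ZNF711 at a background of 8.38%. Higher were WNT7B (3.07), FZD5 (1.16), FZD7 (0.79), FZD10 (3.80), LRP6 (0.35), SFRP2 (5.13) and SFRP5 (1.13), and lower was DKK3 (-0.82). The low ones rest on few reads: WNT7B averaged 3.20 CPM against 0.408, and FZD10 2.92 against 0.267. With no filter on low counts 7 of these 8, all but LRP6, were called in VM ZNF711 at a background of 1.27%. The fit with a block in each protocol called FZD1 as lower in AM LHX2 (-0.64, adjusted p 0.0114, background 3.11%), where the TRAC libraries gave 62.1, 53.0 and 101.9 CPM and the LHX2 libraries 36.7, 54.1 and 45.5.

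Marker lists moved in the same VM ZNF711 libraries, where 2.27% of all genes were called with the replicate block. With the replicate block all 4 cell cycle markers rose, with sums of 412.3, 439.8 and 324.1 CPM against 192.3, 186.3 and 244.9 in VM TRAC. Of the 8 hepatic or visceral endoderm markers 2 rose, with sums of 9232, 18097 and 26455 CPM against 3156, 2864 and 24471, and 1 of 7 cardiomyocyte markers fell, with sums of 16032, 13775 and 10088 against 40041, 34608 and 13401. Of the 6 atrial markers NR2F2 rose and TBX5 fell, and of the 5 ventricular markers IRX4 fell. LIN28A rose among the pluripotency markers, whose sums were 387.0, 418.4 and 340.0 CPM against 144.8, 151.7 and 286.8. One marker each of the foregut (SOX2) and fibroblast (LUM) lists rose, 1 of smooth muscle (ACTA2) fell, and no endothelial or epicardial marker was called. PAX6, a neural gene, rose also without the block. Without VM TRAC replicate 3 there was 1 call among the 34 (background 3.44%), and without replicate 3 of every group there were 5 (background 4.97%). The part of the other cells in the Wnt genes was not tested.

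**Figure D5:**
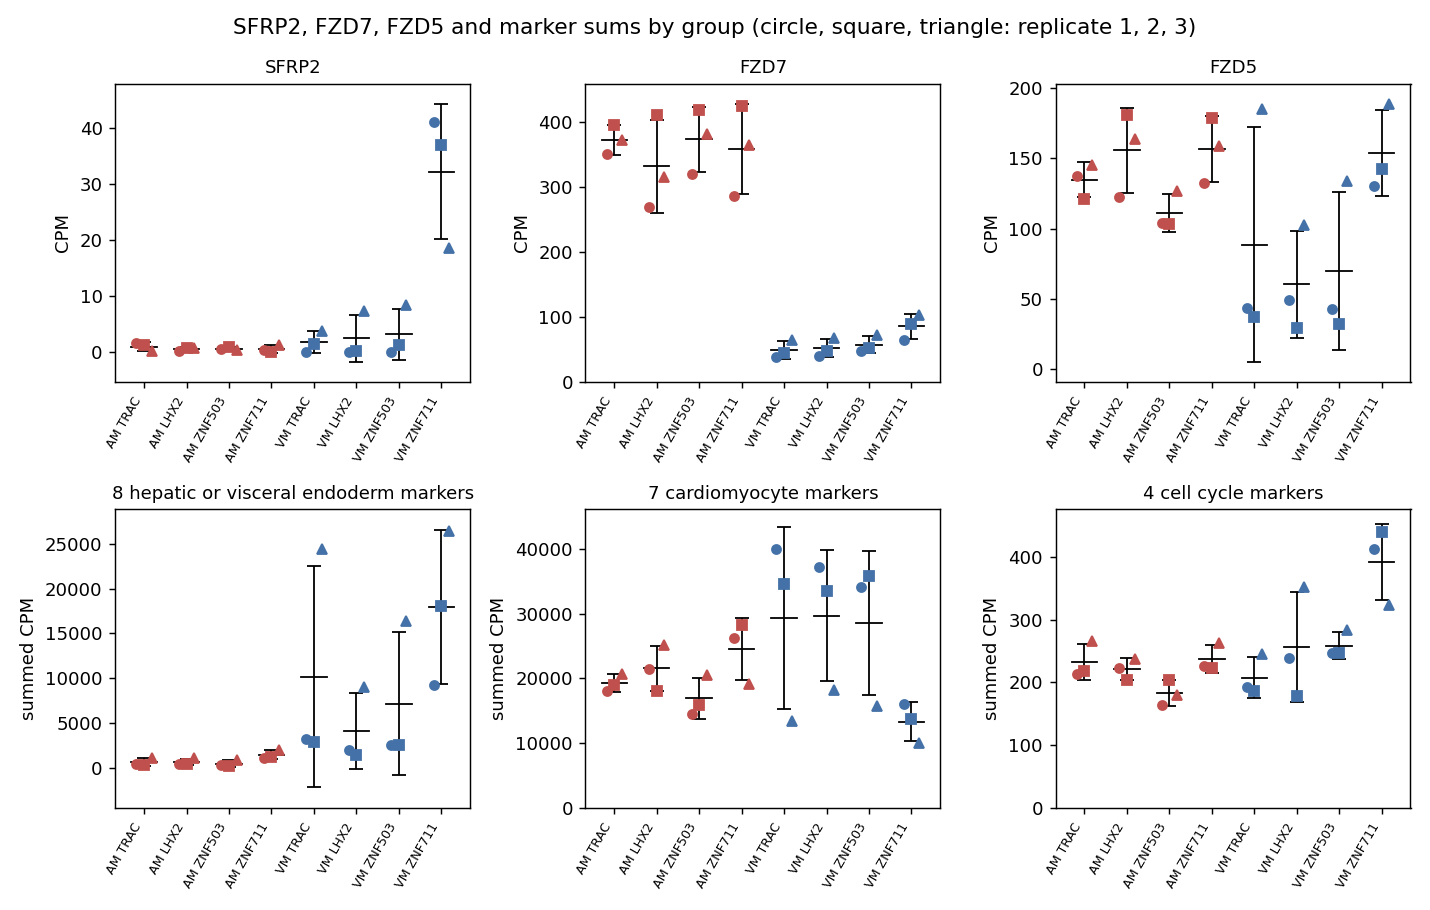
CPM of SFRP2, FZD7 and FZD5 and summed CPM of 3 marker lists in each of the 8 groups, 1 point per library with the mean and the SD. In VM ZNF711 the SFRP2 libraries lie between 18.5 and 41.1 CPM, above all others, and the endoderm and cell cycle sums are high and the cardiomyocyte sum low, as the endoderm and cardiomyocyte sums also are in VM replicate 3 (triangles) of the other targets.

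By the lowest unadjusted p, the leading gene was FZD1 in AM LHX2 (-0.67, p 0.0126, adjusted 0.537), DKK1 in AM ZNF503 (0.57, p 0.0876) and FZD8 in AM ZNF711 (0.63, p 0.0107, adjusted 1). In VM it was SFRP5 in LHX2 (-1.78, p 0.0136, adjusted 1), WNT3 in ZNF503 (-0.79, p 0.0211) and FZD7 in ZNF711. These p-values come from edgeR's fit over all genes and none passed after adjustment. The SFRP5 libraries of VM LHX2 gave 1.87, 3.81 and 4.19 CPM, all below the 6.73, 5.14 and 20.9 CPM of VM TRAC. With no filter on low counts SFRP5 was called there, at a background of 0.35%.

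The third question was whether the effect of a target differed between the protocols. No gene was called in the 3 interactions, where 0%, 0% and, for ZNF711, 0.00564% of all genes were called. At an unadjusted p below 0.05 there were 5 genes for LHX2 (3.72% of all genes), 1 for ZNF503 (1.95%) and 6 for ZNF711 (6.4%). The lowest p belonged to WNT2 for LHX2 (-1.77, adjusted p 1), WNT9A for ZNF503 (1.31, adjusted p 1) and LRP6 for ZNF711 (-0.55, adjusted p 0.487). In AM the ZNF711 libraries gave 154.0, 149.2 and 148.1 CPM of LRP6 and the TRAC libraries 161.5, 181.8 and 175.3, so that LRP6 lay lower in ZNF711 there and higher in VM. With the block in each protocol FZD7 (-0.87, adjusted p 0.000194), LRP6 (-0.55, 0.0115) and LEF1 (0.74, 0.0366) were called for ZNF711, at a background of 2.54%. With no filter SFRP2 and SFRP5 were called there, at 0.538%.

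The rest of the pathway was covered by 83 further genes in 8 groups. Of these 80 were tested and 36 called between AM and VM (21 higher, 15 lower, 45.0%), against the background of 34.5%. With the targets summed 18 calls were left among 81 tested (7 higher, 11 lower, 22.2%), against the background of 11.5%. The largest rises belonged to APC2 (1.87, SE 0.37, adjusted p 0.00032), a relative of the destruction complex protein APC, and RSPO4 (1.67, SE 0.20, adjusted p 3.67e-07), an R-spondin that protects Frizzled receptors from removal. The largest falls belonged to LGR6 (-2.46, SE 0.51, adjusted p 0.000619), an R-spondin receptor, and SP5 (-2.38, SE 0.56, adjusted p 0.00157), a transcription factor switched on by canonical Wnt. SP5 thus went against AXIN2 and NKD1, at means of 0.434 CPM in AM and 2.28 in VM.

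By group, the calls stand beside a share of 34.5% over all genes, or 11.5% with the targets summed. Of the secretion and release genes 5 of 7 were called, 2 higher and 3 lower. In the R-spondin axis 6 of 9 were called, 3 in each direction. Alternative receptors and co-receptors had 3 of 9 called, all higher. The cytoplasmic cascade had 7 of 15 (5 higher, 2 lower) and the nuclear factors 4 of 12 (3 higher, 1 lower). Further targets of the pathway had 6 of 13 tested, 2 higher and 4 lower, planar cell polarity 5 of 12 (3 higher, 2 lower), and the remaining ligands and inhibitors 1 of 8. With the targets summed the calls were 4 of 7 for secretion and release, 4 of 9 for the R-spondin axis, 0 of 9 for alternative receptors, 2 of 15 for the cascade, 1 of 12 for nuclear factors, 3 of 14 for further targets, 3 of 12 for polarity and 1 of 8 for the rest. The alternative receptors called before, ROR1, RYK and KREMEN1, then had adjusted p of 0.347, 0.256 and 0.181. In the comparisons with TRAC none of the 80 was called. With the replicate block VM ZNF711 had DRAXIN, a secreted inhibitor and axon guidance factor, higher (1.66, adjusted p 0.0476) and PRICKLE1, a planar polarity protein, lower (-0.80, adjusted p 0.00718). The share of all genes called in that fit was 2.27%.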

How the data were processed

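The authors deposited whole-number counts per gene for 24 libraries. Reads were aligned with STAR to GRCh38, per the submitters' processing notes, with versions, counting program and strand setting not given in the sources used here. The labels name polyA RNA as the molecule and also ribosomal RNA removal in the library preparation. Every column matched a library and every row a gene identifier. The 42 genes and all lists were chosen with earlier results of these data known.

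Symbols came from a separate list of gene names, positions and exon lengths from GENCODE 29, and promoter sequences from RefSeq (GRCh38.p14). Counts were filtered with filterByExpr, leaving 17724 genes, scaled with TMM, the trimmed mean of M values, and fitted with edgeR 4.0.16 (robust quasi-likelihood, 1 mean per group, 24 libraries, 16 residual degrees of freedom). In each of the 14 comparisons the Benjamini-Hochberg adjustment ran over the whole set of tested genes, and an adjusted p below 0.05 was a call. The fits were tested on simulated data. CPM use TMM-scaled library sizes, and CPM per kb the union of exons. A floor of 3 counts was used for a group at 0.

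Genes named by rule were all tested members in the mean of AM against VM, those called there or within a target, those called against TRAC or in an interaction with or without a replicate block together with the lowest p of each, and from the wider pathway the 2 largest called rises and falls and the genes called against TRAC with or without the block.

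The main fit did not pair same-numbered libraries, and the replicate number entered only as an alternative. Deviations of same-numbered libraries from the group means correlated by 0.12 to 0.79 over 11428 genes, above 0.1 in every pair of groups compared. The main p-values do not account for this, and the labels do not say what a number stands for. Alternatives were scaling by relative log expression (RLE), library size alone, no filter, DESeq2 1.42.0, a fit to the compared groups alone, the replicate number as a block, and each library or replicate number left out. A block in each protocol and sums over the targets were added after the data were seen.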

Additional observations from a re-analysis of the deposited data

How the results depend on the processing

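Most calls between the protocols within a target were lost in at least 1 fit that left out a library or replicate number. In the mean of AM against VM most results kept their direction and call. There the 22 calls were all kept with RLE scaling, DESeq2 and the replicate block, which added FZD5. Library size scaling and no filter each lost WNT2B and FZD9 and gained FZD5, no filter also WNT1. Sums over the targets kept 16, where 11.5% of all genes were called. They lost WNT2B, WNT6, FZD3, FZD6, FZD9 and FZD10. Without replicate 3 of every group 18 were kept, with WNT2B, FZD6, FZD9 and SFRP2 lost and FZD5 and LEF1 gained. The share of all genes called in that fit is not given here.

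With the replicate block 16 genes were called in ZNF711 between the protocols and 3 in VM ZNF711 against TRAC. Beside the calls given in the report the block, or pairing by replicate number, changed no other call. The block in each protocol gave 1 call in AM LHX2, 8 in VM ZNF711 and 3 in the ZNF711 interaction. No filter gave 1 in VM LHX2, 7 in VM ZNF711 and 2 in the ZNF711 interaction. The cause was not tested.

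With 1 library or replicate number left out, the calls between protocols ran from 8 to 14 in TRAC, 7 to 13 in LHX2, 6 to 14 in ZNF503 and 5 to 10 in ZNF711, in part because fewer libraries remained. They ran from 0 to 5 in VM ZNF711 against TRAC and 0 to 2 in its interaction. The shares of all genes called in the fits between protocols are not given here, so those ranges have no background beside them. Of the calls within a target 6 of 15 in TRAC, 6 of 13 in LHX2, 6 of 13 in ZNF503 and 4 of 9 in ZNF711 were kept in each such fit.

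Signs turned only in comparisons in which the gene was not called, although several of these genes were called in others. On the log2 scale library size scaling gave 0.047 for WNT9A and 0.074 for FZD1 in the mean and 0.022 for WNT2B in TRAC. FZD1 was also at 0.048 with summed libraries and 0.0011 with no filter. LRP5 was at -0.0021 with RLE and -0.0022 with DESeq2, LRP6 at -0.014 and -0.013, and DKK3 in ZNF711 at -0.0040 and -0.0029. With libraries left out the mean ran from -0.24 to 0.11 for WNT9A, -0.15 to 0.14 for FZD1, -0.084 to 0.21 for LRP5, -0.016 to 0.049 for LRP6, -0.025 to 0.24 for DKK1, -0.41 to 0.27 for DKK2 and -0.37 to 0.0013 for LEF1. In TRAC it ran from -0.42 to 0.26 for WNT2B and -1.83 to 0.97 for SFRP2. In LHX2 it ran from -0.23 to 2.15 for WNT7B, -0.10 to 0.45 for FZD6, -0.92 to 2.14 for FZD10 and -2.59 to 2.42 for SFRP2. In ZNF503 it ran from -0.89 to 0.086 for WNT2B, -1.51 to 0.25 for FZD9 and -2.95 to 0.28 for SFRP2, and in ZNF711 from -0.12 to 0.12 for DKK3.

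Depth limits the low genes most. The 8 genes not tested had at most 16 counts in a library, and WNT2B had at most 54, FZD9 38, FZD10 27 and DKK2 12, so that differences in them may not have been detectable at this depth.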
